A study of Mus musculus with 18 samples.

Results

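Liver tumours of carcinogen-treated mice were compared by their signal for Oat, the mitochondrial enzyme ornithine aminotransferase. Among 15 tumour arrays of a series of 18, the 6 with an Oat log2 signal below 10 are called Oat-low and the 7 between 10 and 12.5 Oat-retaining; these 13 arrays are described here across all genes other than Oat. Of the tumours, WT tumours 17 and 19 lay above 12.5 and were left out of the comparison, as were the 3 normal livers. The classes were thus chosen by the measured Oat signal, not by a label of the study, and every difference reported is an association with that signal.

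All tumours were hepatocellular carcinoma lesions of male mice aged 54 weeks. Each mouse had received the liver carcinogen diethylnitrosamine (DEN, 100 mg/kg) in week 12, then repeated doses of CCl4, a hepatotoxin (0.5 ml/kg). The Oat-low class held 3 lesions of wild-type (WT) C3H/HeOuJ mice (tumours 16, 18 and 20) and 3 of C3H/HeJ mice (tumours 24, 25 and 26), a strain whose Tlr4P712H allele blunts the response to bacterial lipopolysaccharide. The Oat-retaining class held 2 WT lesions (21 and 22), 2 mutant lesions (23 and 27) and all 3 lesions of WT mice given antibiotics in the water from week 10 (28, 29 and 30), namely vancomycin at 500 mg/l and metronidazole, neomycin and ampicillin at 1 g/l. Normal liver came from untreated male WT mice 15 weeks old, so it differs from the tumours in age and treatment together. Nothing in the labels says that lesions came from separate animals. Each p-value weighs a difference against the scatter among arrays as if these were independent. Where lesions shared an animal, it could be too small. The Tlr4P712H allele is a point change that these arrays do not read, and every Tlr4 probe set was below log2 4 in both classes, the highest reaching 3.82 in Oat-low and 3.32 in Oat-retaining tumours. The 2 mouse strains differ at other loci besides Tlr4, and a dissected lesion is a mixture of cells in which fewer cells of a type and less RNA per cell cannot be told apart.

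Hepatocytes divide their work along the axis from the portal vein to the central vein. Those around the central vein receive Wnt signals, which act through beta-catenin and TCF/LEF factors, and they express glutamine synthetase (Glul), the glutamate transporter Slc1a2, Oat and many cytochrome P450 enzymes. Hepatocytes near the portal vein carry out urea synthesis and gluconeogenesis. Oat converts ornithine to a proline and glutamate precursor, and Glul then fixes ammonia on glutamate, so both are read as markers of pericentral hepatocytes.

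The promoters of both class markers are shown with those of the 3 pericentral genes lower in Oat-low tumours whose promoter held a TCF/LEF motif; these last were picked after the motif search. Each is the 250 bases before a listed start of the gene, from RefSeq on build GRCm38.p6, written 5′ to 3′ on the strand of the gene. For a gene with several starts the first listed was used, which need not be the main one. Capitals mark the letters CTTTGAT, a TCF/LEF motif, on either strand. The Oat window is chr7:132576399-132576648 (minus strand), the Glul window chr1:153899679-153899928 (plus), Cyp2c29 chr19:39286835-39287084 (plus), Lect2 chr13:56548539-56548788 (minus) and Slc1a2 chr2:102706188-102706437 (plus).
Oat: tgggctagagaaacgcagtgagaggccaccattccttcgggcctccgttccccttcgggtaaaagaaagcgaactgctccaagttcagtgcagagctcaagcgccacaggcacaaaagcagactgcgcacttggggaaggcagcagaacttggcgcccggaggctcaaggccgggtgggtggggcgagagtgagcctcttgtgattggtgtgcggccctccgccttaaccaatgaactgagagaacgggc
Glul: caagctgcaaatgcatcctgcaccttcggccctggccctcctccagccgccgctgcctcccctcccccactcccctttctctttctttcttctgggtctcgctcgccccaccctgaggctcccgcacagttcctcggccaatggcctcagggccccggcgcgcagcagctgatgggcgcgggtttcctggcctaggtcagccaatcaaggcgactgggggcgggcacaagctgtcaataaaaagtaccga
Cyp2c29: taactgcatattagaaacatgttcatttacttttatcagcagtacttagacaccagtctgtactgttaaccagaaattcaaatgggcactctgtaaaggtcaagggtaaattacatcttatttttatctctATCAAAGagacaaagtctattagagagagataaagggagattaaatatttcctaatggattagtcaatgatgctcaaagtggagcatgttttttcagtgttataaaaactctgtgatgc
Lect2: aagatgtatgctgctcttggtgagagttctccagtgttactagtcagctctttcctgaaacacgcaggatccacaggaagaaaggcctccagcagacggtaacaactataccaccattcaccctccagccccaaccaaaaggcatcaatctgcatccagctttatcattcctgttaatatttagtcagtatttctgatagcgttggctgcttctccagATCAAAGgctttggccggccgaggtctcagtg
Slc1a2: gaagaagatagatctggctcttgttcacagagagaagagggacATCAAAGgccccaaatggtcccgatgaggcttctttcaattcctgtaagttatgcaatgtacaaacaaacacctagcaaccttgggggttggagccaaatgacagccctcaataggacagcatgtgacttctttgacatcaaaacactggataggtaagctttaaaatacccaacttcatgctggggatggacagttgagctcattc

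In Cyp2c29, Lect2 and Slc1a2 the motif was written on the strand opposite to the gene, starting at positions -119, -32 and -207 from the start. The windows of Oat and Glul held neither these letters nor CAAAGTCCA, an HNF4A motif that shares the letters CAAAG with the first on the opposite strand. The TCF/LEF letters stood in 6.751% of the windows of genes lower in Oat-low tumours (16 of 237 with a sequence), in 1.653% for the genes higher (2 of 121), in 2.443% for all genes tested (181 of 7409) and in 3.227% of all 27025 promoters. The HNF4A letters stood in 0.422%, 0% and 0.324% of the windows of the lower, higher and tested genes, and in 0.381% of all promoters. These shares describe letters in a window and say nothing of binding.

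**Figure D1:**
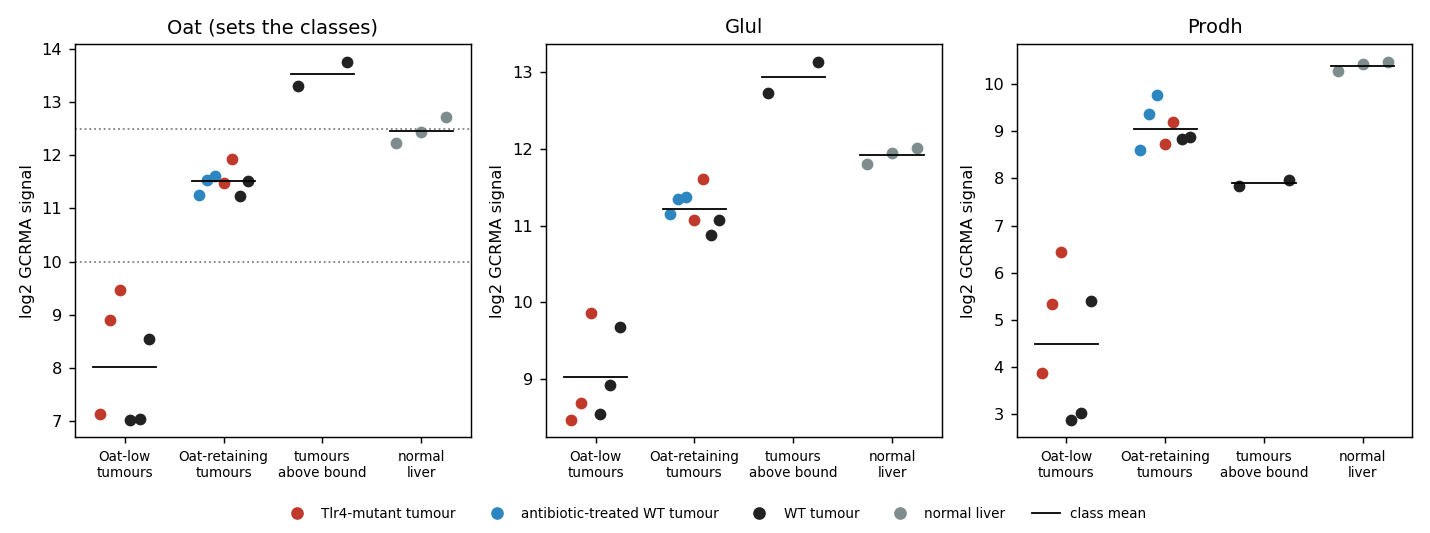
Log2 GCRMA signal of Oat, Glul and Prodh on each array (points, coloured by the label of the study), with the class mean as a line and the 2 Oat bounds dotted. Glul and Prodh of all 6 Oat-low tumours lie below those of all 7 Oat-retaining tumours, while WT tumours 17 and 19 are above every other array for Glul.

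Oat was read by 1 probe set. Its log2 signal was 8.54, 7.03 and 7.03 in Oat-low WT tumours 16, 18 and 20 and 8.91, 9.47 and 7.13 in Oat-low mutant tumours 24, 25 and 26. It was 11.52 and 11.24 in Oat-retaining WT tumours 21 and 22, 11.92 and 11.48 in mutant tumours 23 and 27, and 11.60, 11.25 and 11.54 in antibiotic-treated tumours 28, 29 and 30. WT tumours 17 and 19 read 13.30 and 13.75, and normal livers 12.23 to 12.72. Around the lower bound the nearest tumours were 25, at 9.47, and 22, at 11.24, and around the upper bound 23, at 11.92, and 17, at 13.30. No antibiotic-treated tumour was Oat-low, so within those 3 lesions the classes cannot be compared.

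Among the genes that passed, more were lower than higher in Oat-low tumours. With limma and Benjamini-Hochberg adjustment over 9052 genes, 293 genes (3.24%) were lower and 152 (1.68%) higher at an adjusted p under 0.05, of which 140 and 48 differed at least 2-fold. The classes did not overlap for 168 genes (1.86%) lower and 83 (0.917%) higher in Oat-low tumours. The median difference over all genes was 0.01 on the log2 scale. With the labelled group as a covariate 138 genes were lower and 57 higher, 115 and 43 of them among the calls without it. The counts without the antibiotic-treated tumours were 152 and 66. Every antibiotic-treated tumour was Oat-retaining, so both settings estimate the same class difference by design. They differ only in how its scatter is estimated and are not separate checks. Leaving out WT tumour 18 gave 128 lower and 44 higher genes, the fewest of any single omission.

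The list of Wnt targets and pericentral genes was lower as a group in Oat-low tumours. Of its 18 measured members 12 passed the test, all lower, against 3.24% of all genes. The median difference was -1.45 log2, against 0.01 over all genes, and all 18 members had a negative difference. The classes did not overlap for 9 members, all lower, against 1.86% of all genes. With the labelled group as a covariate 9 members passed. The mean log2 signal over the list was 6.44 to 7.71 in Oat-low tumours and 8.32 to 8.86 in Oat-retaining tumours, with no overlap. In tumours 17 and 19 it was 10.15 and 10.73, and in normal liver 9.13 to 9.22. Both Oat classes thus lay below normal liver, the Oat-low tumours further, and tumours 17 and 19 above it.

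Glul, the enzyme that makes glutamine and the second gene by which this split was proposed, had a log2 signal of 8.47 to 9.86 (median 8.80) in Oat-low tumours and 10.88 to 11.61 (median 11.16) in Oat-retaining tumours. The classes did not overlap. The difference was -2.19 ± 0.23 (SE; limma adjusted p = 0.000435), a 4.56-fold lower signal, with -1.93 among WT tumours and -2.33 among mutant tumours. Since Glul was named with the split, its value is not independent support for it. Tumours 17 and 19 read 12.73 and 13.14, and normal liver averaged 11.92.

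Slc1a2, the glutamate transporter that pericentral hepatocytes share with brain, was dim throughout, at 2.21 to 3.05 in Oat-low tumours and 3.86 to 4.21 in Oat-retaining tumours (log2). Of the 13 arrays 12 were below log2 4, the level used as the floor, so no fold or difference is given, and its place among the 12 calls rests on values at the floor (limma adjusted p = 0.000212). Lect2, a secreted hepatocyte protein and Wnt target, had 6.74 to 9.89 (median 8.51) in Oat-low tumours and 9.89 to 10.80 (median 10.27) in Oat-retaining tumours, a difference of -1.92 ± 0.38 (limma adjusted p = 0.0154). The highest Oat-low tumour, 16, reached the lowest Oat-retaining one. Rhbg, an ammonium transporter, was below log2 4 in all Oat-low tumours and at 3.41 to 5.55 in Oat-retaining tumours, at least 1.40-fold lower (limma adjusted p = 0.044). That call was lost when any of 10 arrays was left out. Tumours 17 and 19 stood at 7.66 and 9.13.

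Other pericentral members that fell were Cyp27a1 (-1.99 ± 0.30 log2), Cyp2c50 (-2.75 ± 0.48), Rgn (-1.62 ± 0.27), Lhpp (-1.73 ± 0.33), Cyp2c29 (-1.86 ± 0.34) and Slc13a3, whose call 10 of 13 omissions ended. Tbx3, a transcription factor induced by Wnt, missed the threshold, with 3.64 to 4.96 in Oat-low tumours and 4.16 to 6.05 in Oat-retaining tumours (log2 difference -1.11 ± 0.32, limma adjusted p = 0.0655). The Wnt feedback genes Rnf43 and Znrf3, which encode ligases that remove Wnt receptors, had differences of -0.83 ± 0.25 and -0.41 ± 0.14 and did not pass (limma adjusted p = 0.0754 and 0.122). Axin2 and Lgr5, which report Wnt signalling in many tissues, were below log2 4 on all 13 arrays, as were Nkd1, Notum, Sp5 and Wif1, and none of them was tested. The members that fell were thus hepatocyte enzymes, transporters and a secreted protein.

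Part of the drug-metabolising P450 genes were lower too. Of 25 measured members of the P450 and xenobiotic list 8 passed, all lower, against 3.24% of all genes, and 17 did not pass. The median difference was -0.84 log2. The classes did not overlap in any of the 8, against 1.86% of all genes that were lower without overlap. Without WT tumour 16 the count was 12, and without the antibiotic-treated tumours 5. Cyp2c29, Cyp2c50, Cyp1a2 and Cyp2e1 also stand in the pericentral list, so the lists are not independent. Cyp2e1, which oxidises ethanol and activates CCl4 and DEN, had 11.33 to 13.27 (median 12.25) in Oat-low tumours and 13.56 to 13.93 (median 13.68) in Oat-retaining tumours, a difference of -1.51 ± 0.25 (limma adjusted p = 0.00775). Every Oat-low tumour was below every Oat-retaining one.

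Cyp1a2, an aryl hydrocarbon-inducible oxidase of central hepatocytes, had 5.89 to 10.95 (median 8.58) in Oat-low tumours and 11.12 to 12.12 (median 11.56) in Oat-retaining tumours. The difference was -3.18 ± 0.72 (limma adjusted p = 0.0254), and with the labelled group as a covariate the adjusted p was 0.0832. The spread was far wider among Oat-low tumours, which reached almost to the other class. Cyp2c54 (-4.36 ± 0.76) and Cyp2c37 (-3.67 ± 0.54) fell further, and the classes were apart for both. Nr1i3, the nuclear receptor CAR that induces such enzymes, had 4.11 to 6.47 (median 5.16) in Oat-low tumours, against a lowest value of 7.04 and a median of 7.78 in Oat-retaining tumours (difference -2.65 ± 0.40, limma adjusted p = 0.00455). Nr1i2, the related receptor PXR, had a difference of -0.69 ± 0.28 that did not pass (limma adjusted p = 0.189), and Cyp3a11, a PXR target, one of -0.11 ± 0.20 (limma adjusted p = 0.812). Members of the Cyp2c and Cyp4a families are near-identical in sequence and their probe sets may share signal.

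Enzymes around ornithine, glutamate and proline gave a mixed picture. Of 30 measured members 3 fell (Prodh, Glul and Asl) and 1 rose (Aldh18a1), against 3.24% and 1.68% of all genes. The median difference was -0.15 log2. Prodh, the proline dehydrogenase that starts proline breakdown toward the product Oat also makes, was among the largest falls. Its log2 signal was 5.39, 3.02 and 2.87 in Oat-low WT tumours 16, 18 and 20 and 5.33, 6.43 and 3.87 in mutant tumours 24, 25 and 26, against 8.60 to 9.77 in the 7 Oat-retaining tumours. The classes did not overlap, and normal liver averaged 10.39. The difference was -4.57 ± 0.52 (limma adjusted p = 0.000713), with -5.11 among WT and -3.76 among mutant tumours. Since 3 of the 6 Oat-low values were below log2 4, its exact size is uncertain. Tumours 17 and 19, which had the highest Oat, read 7.96 and 7.83, below every Oat-retaining tumour.

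Aldh18a1, which makes the same intermediate from glutamate on the way to proline, was higher, with 5.48 to 7.73 (median 6.52) in Oat-low tumours and 3.19 to 5.99 (median 4.72) in Oat-retaining tumours. The difference was 2.05 ± 0.47 (limma adjusted p = 0.0261) and 4 of 13 omissions of an array ended the call, as did the labelled group as a covariate (adjusted p = 0.106). Prodh2, a hydroxyproline dehydrogenase, had a difference of 0.15 ± 0.23 and Aldh4a1, the next enzyme of proline breakdown, of -0.61 ± 0.21, and neither passed (limma adjusted p = 0.759 and 0.113). Slc25a15, the mitochondrial ornithine carrier, had -0.45 ± 0.13 (limma adjusted p = 0.069), and Glud1, glutamate dehydrogenase, 0.31 ± 0.11 (limma adjusted p = 0.132).

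In the urea cycle Asl, argininosuccinate lyase, fell by 1.19 ± 0.20 on the log2 scale (limma adjusted p = 0.00756), with 8.73 to 9.91 in Oat-low tumours and 10.19 to 10.88 in Oat-retaining tumours. The other cycle enzymes did not pass. Arg1 differed by -0.12 ± 0.11 (limma adjusted p = 0.568), Otc by -0.16 ± 0.19 (0.671), Cps1 by -0.25 ± 0.14 (0.335) and Ass1 by -0.69 ± 0.50 (0.471). Odc1, which takes ornithine to polyamines, differed by -0.12 ± 0.16 (limma adjusted p = 0.71). The ornithine users outside the Oat step thus showed no difference past the threshold, although a p that misses it does not show equal levels.

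**Figure D2:**
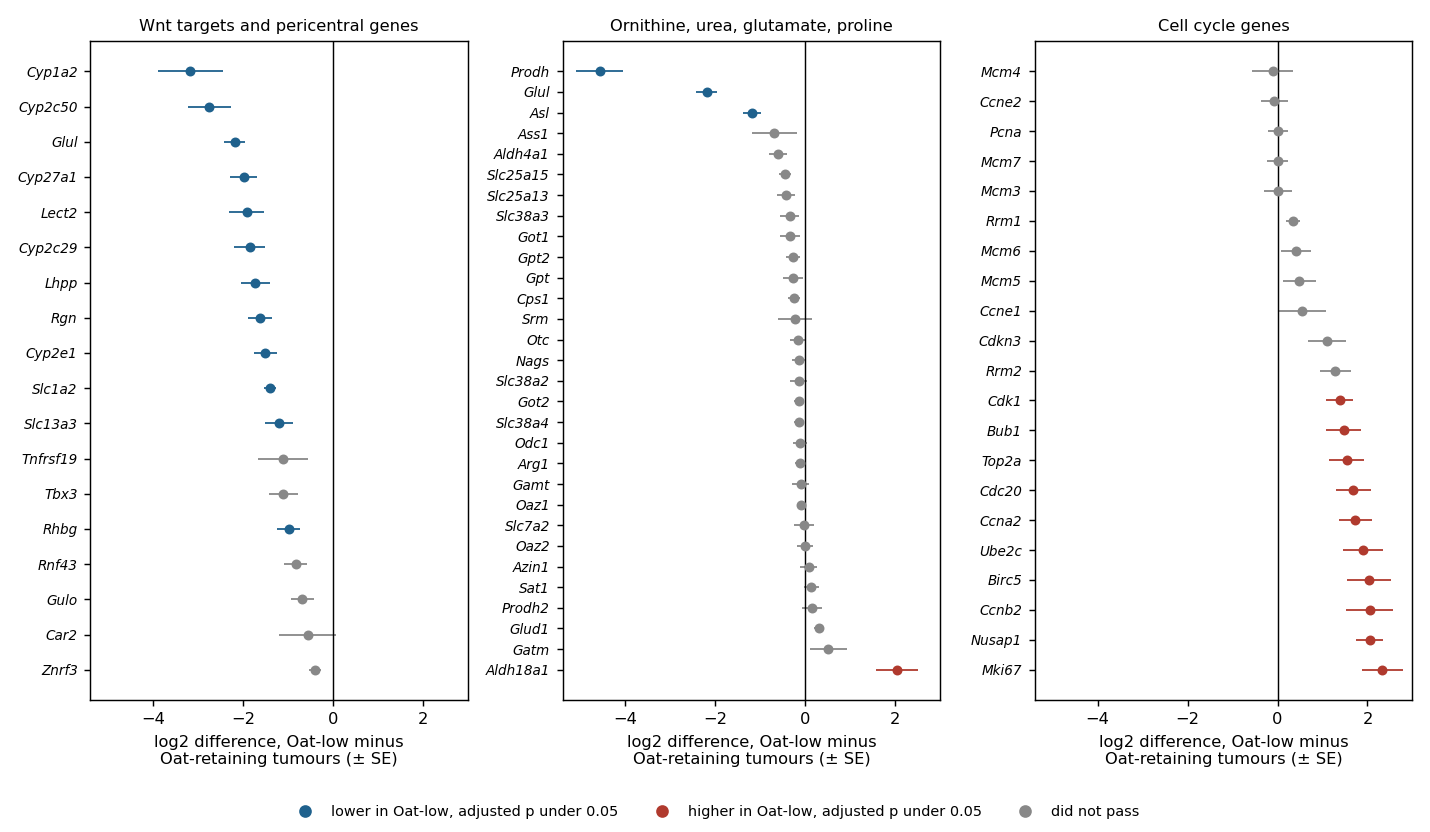
Log2 difference of each measured gene between Oat-low and Oat-retaining tumours (points, ± SE over 13 arrays) in 3 gene lists, with genes past an adjusted p of 0.05 in colour. All 18 pericentral genes lie left of 0, Prodh, Glul and Asl fell against small differences for most of the ornithine and urea genes, and 10 of 21 cell cycle genes rose.

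Of 20 measured periportal genes 2 fell (Asl and Etnppl) and 1 rose (Cdh1), against 3.24% and 1.68% of all genes, and 8 had an unadjusted p under 0.05. The median difference was -0.07 log2. The list mean was 10.08 to 11.07 in Oat-low tumours and 10.80 to 11.56 in Oat-retaining tumours, which overlap, while tumours 17 and 19 stood at 9.19 and 8.17. Hal, the periportal histidine lyase, had a difference of 0.15 ± 0.28 (limma adjusted p = 0.814), and 5.26 and 4.58 in tumours 17 and 19 against 9.68 to 11.11 in Oat-low tumours. Cyp2f2, a periportal P450, had 7.60 to 11.46 in Oat-low tumours and 10.58 to 12.28 in Oat-retaining tumours and did not pass (-2.29 ± 0.63, limma adjusted p = 0.0567). Cdh1, the epithelial cadherin that is denser on periportal hepatocytes, rose by 0.85 ± 0.21 (limma adjusted p = 0.0369), with 11.02 to 11.85 in Oat-low tumours and 9.65 to 10.96 in Oat-retaining tumours, and 8 of 13 omissions ended that call.

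Part of the bile acid genes had a lower signal, while bile acids themselves were not measured. Of 22 measured genes of bile acid synthesis and transport 4 fell and 1 rose, against 3.24% and 1.68% of all genes. The median difference was -0.60 log2. Cyp7a1, the rate-limiting enzyme of the classical pathway, had a lowest log2 signal of 4.26 and a median of 6.05 in Oat-low tumours, against 9.12 to 11.14 (median 10.73) in Oat-retaining tumours, a 15.1-fold difference (-3.92 ± 0.70 log2, limma adjusted p = 0.0108). The classes were just apart, and with the labelled group as a covariate the adjusted p was 0.0575. Cyp27a1 and Cyp7b1, enzymes of the alternative pathway, fell by 1.99 ± 0.30 and 2.90 ± 0.70, and Slco1b2, a bile acid and drug uptake carrier, by 2.43 ± 0.37 on the log2 scale. Cyp7b1 lost its call with the labelled group as a covariate (limma adjusted p = 0.0681) and in 8 of 13 omissions. Cyp39a1, an oxysterol hydroxylase, rose by 0.82 ± 0.19 (limma adjusted p = 0.0274), and 6 of 13 omissions ended that call. Without WT tumour 16, 7 members of the list fell, and with the labelled group as a covariate 2. Cyp8b1 (-2.06 ± 0.72) and the uptake carrier Slc10a1 (-0.86 ± 0.30) did not pass, with adjusted p of 0.124 and 0.125.

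Part of the amino acid breakdown genes had a lower signal. Of 31 measured members 7 fell and none rose, against 3.24% and 1.68% of all genes. The median difference was -0.43 log2. Beside Prodh these were the tyrosine enzymes Hpd (-1.32 ± 0.23, limma adjusted p = 0.00877) and Hgd (-0.67 ± 0.14, 0.0161), the methionine cycle enzymes Gnmt (-1.42 ± 0.27, 0.0129) and Ahcy (-0.91 ± 0.23, 0.0399), the tryptophan enzyme Haao (-0.73 ± 0.18, 0.04) and the lysine enzyme Aass (-0.63 ± 0.16, 0.0455). Hpd had 10.72 to 12.33 in Oat-low tumours and 12.62 to 13.27 in Oat-retaining tumours. With the labelled group as a covariate 4 members passed, as without any 1 of tumours 18, 20, 21, 22, 23, 24, 27 and 28. Among 27 general hepatocyte genes 3 fell (Hpd and Hgd, counted above, and Cebpb), against 3.24% of all genes, and the median difference was -0.00 log2. Cebpb lost its call in 8 of 13 omissions of an array and with the labelled group as a covariate (limma adjusted p = 0.0832).

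Genes that are higher in male than in female liver had negative differences in all 17 measured members, with a median of -2.20 log2. Only 4 passed (Cyp4a12a, Cyp7b1, Susd4 and Mup10), all lower, against 3.24% of all genes. Its mean was 5.74 to 8.21 in Oat-low tumours and 6.21 to 9.71 in Oat-retaining tumours, and antibiotic-treated tumour 30 was the lowest Oat-retaining one. Without tumour 30, 11 members passed, without WT tumour 16, 6, and without WT tumour 18 or 20, 1. Susd4, a complement regulator, had 3.82 to 5.61 in Oat-low tumours and 4.72 to 7.52 in Oat-retaining tumours (-2.30 ± 0.43, limma adjusted p = 0.0129). Cyp4a12a, a fatty acid hydroxylase, was 17.1-fold lower (limma adjusted p = 0.0244), which did not hold with the covariate (0.0758). It was below log2 4 in Oat-low tumours 18 (3.93) and 26 (3.54), so the exact size of this fall is uncertain. Of 12 measured female-biased genes none passed with limma (6 at an unadjusted p under 0.05), and their median difference was 0.14. Cyp2b13, the member with the largest difference, had 4.46 to 9.60 in Oat-low tumours and 2.04 to 6.58 in Oat-retaining tumours (3.27 ± 1.04, limma adjusted p = 0.0917).

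Further large falls were in genes of varied function. Dct, dopachrome tautomerase of melanin synthesis, had 2.43 to 5.12 (median 2.88) in Oat-low tumours and 6.05 to 8.87 (median 7.79) in Oat-retaining tumours (-4.31 ± 0.56, limma adjusted p = 0.00197). Since 5 of the 6 Oat-low values were below log2 4, the exact size of the difference is uncertain. Among the Oat-retaining tumours the 3 antibiotic-treated ones were lowest, at 6.68, 6.24 and 6.05, and with the covariate the difference was -5.20. Nnmt, which methylates nicotinamide, was below log2 4 in all Oat-low tumours and at 5.36 to 9.08 in Oat-retaining tumours, at least 9.49-fold lower (limma adjusted p = 0.00237). Normal liver averaged 4.54, so the Oat-retaining tumours stood above it and the Oat-low tumours below.

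Etnppl, which cleaves phosphoethanolamine, fell by 4.21 ± 0.73 (limma adjusted p = 0.00877). Cyp26a1, which degrades retinoic acid, had 3.75 to 5.28 (median 4.01) in Oat-low tumours and 6.87 to 9.24 (median 7.80) in Oat-retaining tumours (-3.72 ± 0.35, limma adjusted p = 0.000212). Its classes were far apart in WT tumours (-3.10) and in mutant tumours (-4.09). Hamp2, a hepcidin gene, fell by 3.89 ± 0.82 (limma adjusted p = 0.0194), Nat8, an acetyltransferase, by 3.69 ± 0.60 (0.00691) and Slco2b1, an organic anion carrier, by 3.63 ± 0.54 (0.00455). Hamp2 was at 10.38 to 12.07 in antibiotic-treated tumours and at 8.56 to 9.38 in the other Oat-retaining tumours, and it did not pass with the covariate (0.0776). Some Oat-low values were below log2 4 for Etnppl, Cyp26a1, Hamp2, Nat8 and Slco2b1 too, so the exact sizes of these falls are uncertain. Hamp2 and Nat8 have near-identical relatives whose signal their probes may share.

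**Figure D3:**
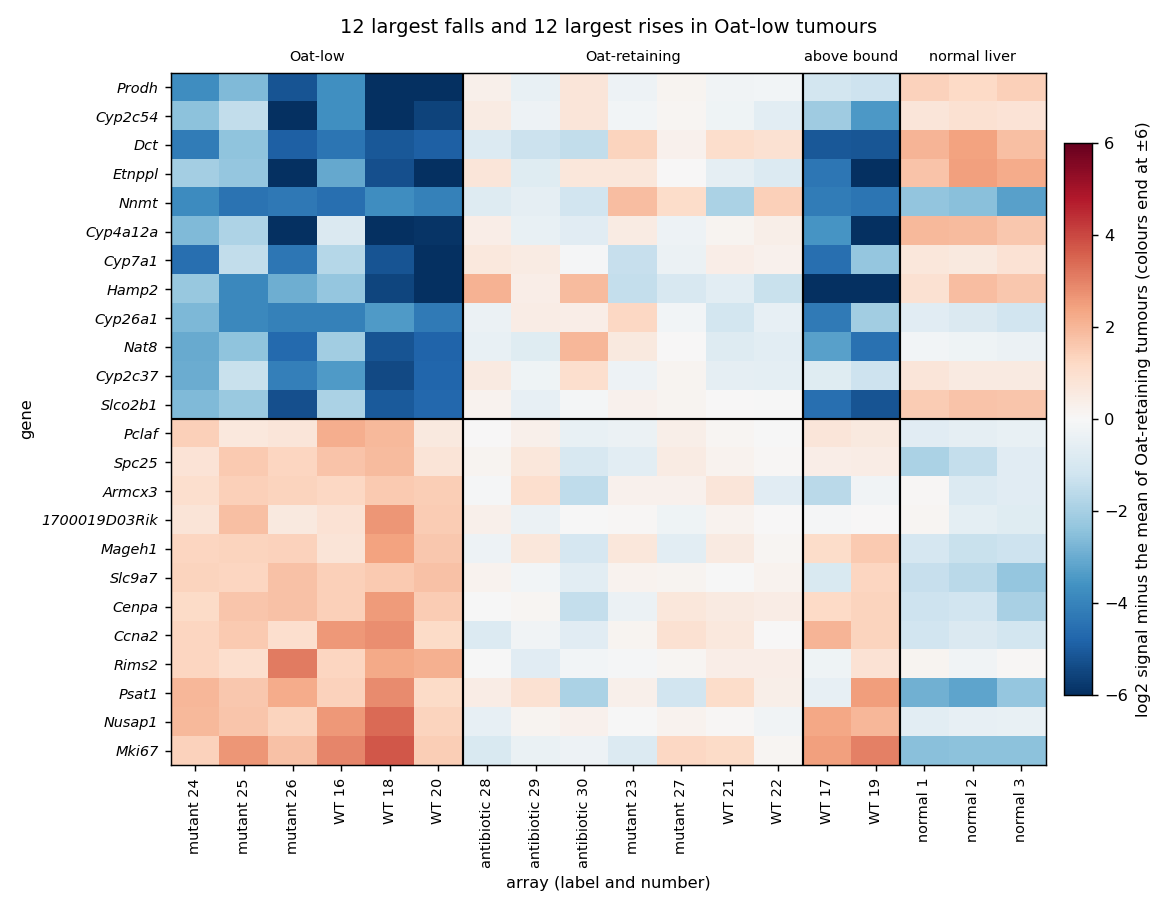
Log2 signal minus the mean of Oat-retaining tumours (colour, ending at ±6) for the 12 largest falls and 12 largest rises among genes past an adjusted p of 0.05 with classes apart, on all 18 arrays. All 6 Oat-low tumours lie on one side of all 7 Oat-retaining tumours for these genes, and tumours 17 and 19 are low for Dct, Etnppl and Nnmt as well.

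Part of the proliferation genes were higher in Oat-low tumours. Of 21 measured cell cycle genes 10 rose and none fell, against 1.68% of all genes that rose, and the median difference was 1.29 log2. Those that rose were Mki67, Nusap1, Ccna2, Cdk1, Cdc20, Ube2c, Birc5, Top2a, Ccnb2 and Bub1. Among the others, named after their values were seen, Pcna had a difference of 0.01 ± 0.23, Mcm3 of 0.01 ± 0.31 and Mcm4 of -0.10 ± 0.46. Mki67, the proliferation antigen, had 8.14, 8.94 and 6.69 in Oat-low WT tumours and 6.57, 7.84 and 6.97 in Oat-low mutant tumours, against 4.27 to 6.42 in Oat-retaining tumours (2.33 ± 0.46, limma adjusted p = 0.0153). The classes were just apart. Nusap1, a spindle protein, was below log2 4 in all Oat-retaining tumours and at 4.02 to 6.11 in Oat-low tumours, at least 1.68-fold higher (limma adjusted p = 0.00455). Outside the Oat-low class it exceeded log2 4 only in tumours 17 and 19 (5.03 and 4.71), so it passed the signal filter through the Oat-low class.

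The list mean was 5.34 to 6.67 in Oat-low tumours and 4.57 to 5.28 in Oat-retaining tumours, highest in Oat-low WT tumours 16 and 18. It was 6.05 and 5.74 in tumours 17 and 19 and 3.79 to 3.92 in normal liver. The count of 10 fell to 1 with the labelled group as a covariate and to 1 without the antibiotic-treated tumours, which estimate the same class difference by design. It was 3 without WT tumour 18, 4 without antibiotic-treated tumour 28, mutant tumour 23 or WT tumour 22, and 5 without WT tumour 16 or mutant tumour 25. Further rises among the 12 largest were Ccna2 (1.73 ± 0.36) and the chromosome segregation genes Cenpa (1.67 ± 0.32) and Spc25 (1.35 ± 0.28), and Pclaf (1.24 ± 0.27), a partner of PCNA. With the labelled group as a covariate Cenpa, Spc25 and Pclaf did not pass (limma adjusted p = 0.0681, 0.0706 and 0.072).

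**Figure D4:**
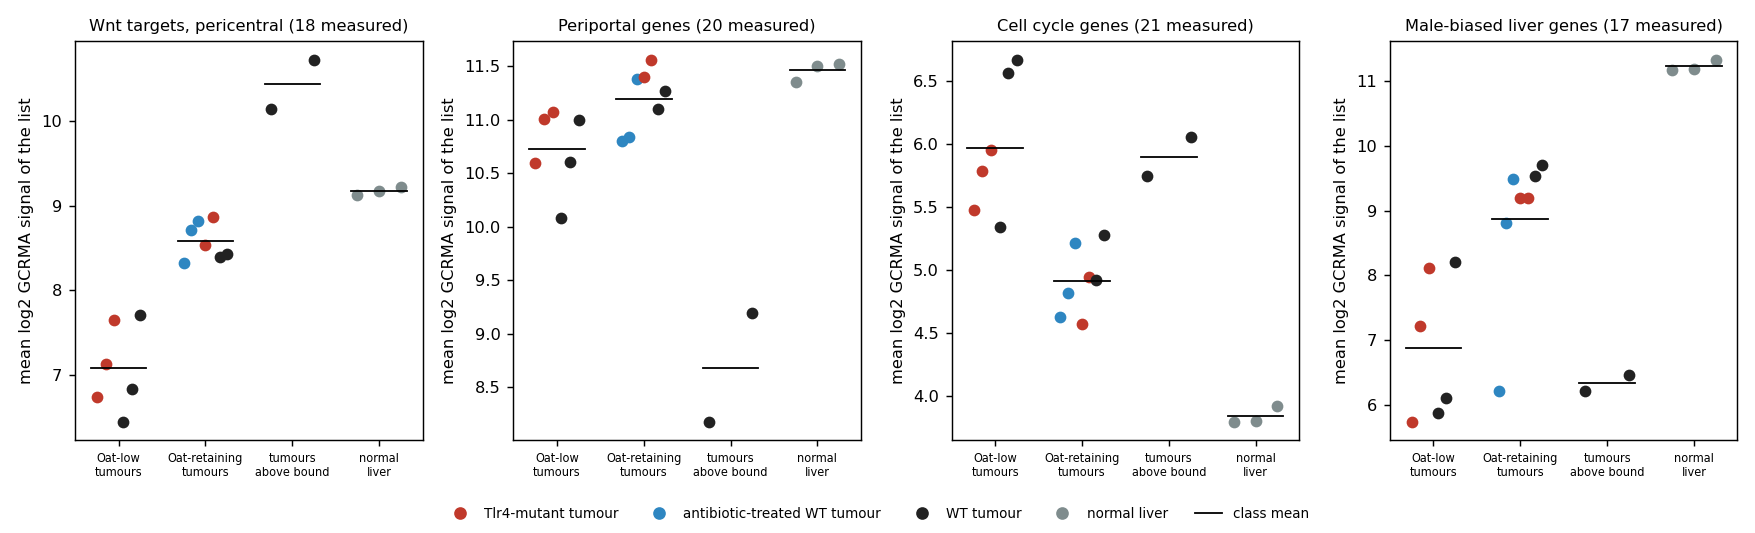
Mean log2 GCRMA signal over the measured members of 4 gene lists on each array (points, coloured by label), with the class mean as a line. The pericentral means of the classes do not overlap and tumours 17 and 19 lie above normal liver, whereas the periportal, cell cycle and male-biased means overlap or nearly touch between the classes.

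The other large rises were of varied function. Psat1, a serine synthesis enzyme, had 6.66 to 8.33 in Oat-low tumours and 3.58 to 6.62 in Oat-retaining tumours (1.87 ± 0.47, limma adjusted p = 0.0395), and 9 of 13 omissions ended the call. Trib3, a pseudokinase induced by the integrated stress response, rose by 1.66 ± 0.36 (limma adjusted p = 0.0216). These were the 2 of 21 stress response and serine genes that passed, against 1.68% of all genes that rose. The list median was 0.22 log2. Phgdh (1.22 ± 0.51) and Psph (1.15 ± 0.33), the other serine synthesis enzymes, did not pass (limma adjusted p = 0.191 and 0.066). Slc9a7, a sodium-proton exchanger of the Golgi, had 5.39 to 5.83 in Oat-low tumours and 3.47 to 4.31 in Oat-retaining tumours (1.52 ± 0.15, limma adjusted p = 0.000212). It was tight within both classes. Rims2, a vesicle release protein, was below log2 4 in all Oat-retaining tumours and at least 2.44-fold higher in Oat-low tumours (limma adjusted p = 0.00779). For 1700019D03Rik the signal was at least 1.13-fold higher (0.019). It exceeded log2 4 only in Oat-low tumours 18, 20 and 25 (5.45, 4.32 and 4.63). Outside the Oat-low class Rims2 exceeded log2 4 only in tumour 19 (4.28). Both genes thus passed the signal filter through the Oat-low class, so their rises are not independent support. The X-linked genes Mageh1 (1.47 ± 0.32) and Armcx3 (1.35 ± 0.33) rose as well, but with the labelled group as a covariate neither passed (limma adjusted p = 0.0941 and 0.148), and 9 of 13 omissions ended the call of Armcx3.

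Oncofetal genes and ERK output genes gave no calls. Of 24 measured oncofetal and tumour marker genes none passed with limma (2 at an unadjusted p under 0.05), and the median difference was 0.46 log2. Afp, the fetal serum protein, had 12.91 to 13.80 in Oat-low tumours and 6.63 to 13.25 in Oat-retaining tumours, the lowest being antibiotic-treated tumour 30 (1.53 ± 0.89, limma adjusted p = 0.359). Gpc3, a fetal proteoglycan, had 6.27 to 11.08 in Oat-low tumours and 7.47 to 10.84 in Oat-retaining tumours (0.98 ± 0.77, limma adjusted p = 0.512). Peg3, an imprinted gene, had 5.97 to 10.31 in Oat-low tumours and 2.15 to 7.23 in Oat-retaining tumours (3.29 ± 0.93, limma adjusted p = 0.0617). Of 16 measured feedback and output genes of ERK signalling none passed with limma (2 at an unadjusted p under 0.05). Dusp6, a phosphatase induced by ERK, had 10.62 to 11.72 in Oat-low tumours and 9.83 to 11.68 in Oat-retaining tumours (0.36 ± 0.32, limma adjusted p = 0.561), and Ccnd1, cyclin D1, differed by 0.15 ± 0.36 (0.853).

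Acute phase genes fell at the orosomucoids alone by this test. Of 26 measured members 2 fell, against 3.24% of all genes, and the median difference was -0.13 log2. Orm2 had 3.22 to 5.35 (median 3.79) in Oat-low tumours and 5.17 to 13.15 (median 8.41) in Oat-retaining tumours (-4.82 ± 1.11, limma adjusted p = 0.0268), and Orm1 fell by 1.25 ± 0.31 (0.0389). Both carriers are near-identical in sequence, and 3 and 9 of 13 omissions ended their calls. The median Oat-low value of Orm2 was below log2 4, so the exact size of its fall is uncertain. Saa1 (-2.71 ± 0.77) and Saa2 (-3.03 ± 0.90), serum amyloids, missed the threshold (limma adjusted p = 0.0618 and 0.0746) and passed with the labelled group as a covariate (0.0222 and 0.0353). Hp, haptoglobin, differed by -0.06 ± 0.10 (limma adjusted p = 0.78).

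In the remaining lists few genes passed. Glutathione transferase and NRF2 genes had 1 of 27 lower (Gsta3, -0.86 ± 0.21), which is near the 3.24% of all genes. Immediate early and heat shock genes had 2 of 22 lower (Dusp1, -1.79 ± 0.36, and Hspb1, -1.08 ± 0.28). Hypoxia genes had 2 of 16 lower (Pdk1, -0.66 ± 0.15, and Mxi1, -0.55 ± 0.14). Of 13 omissions of an array, 5 ended the call of Gsta3, 10 that of Hspb1, 6 that of Pdk1 and 12 that of Mxi1. With limma none passed among 22 fatty acid synthesis genes (7 at an unadjusted p under 0.05), 20 cholesterol synthesis genes (1), 21 PPARalpha and oxidation genes (1), 21 glycolysis and gluconeogenesis genes (6), 24 interferon-stimulated genes (3) and 17 clock genes (2). All 20 cholesterol synthesis genes had a positive difference, with a median of 0.23 log2. The members of largest difference were Elovl3 (-2.22 ± 1.22), Mvd (0.56 ± 0.39), Acot1 (-1.19 ± 0.36), G6pc (-1.78 ± 0.93), Cxcl9 (1.21 ± 0.67) and Usp2 (8.96-fold lower on average, limma adjusted p = 0.152), and none of these 6 passed. Usp2, a clock-driven protease, was near log2 3 or near 8 on single arrays of both classes.

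**Figure D5:**
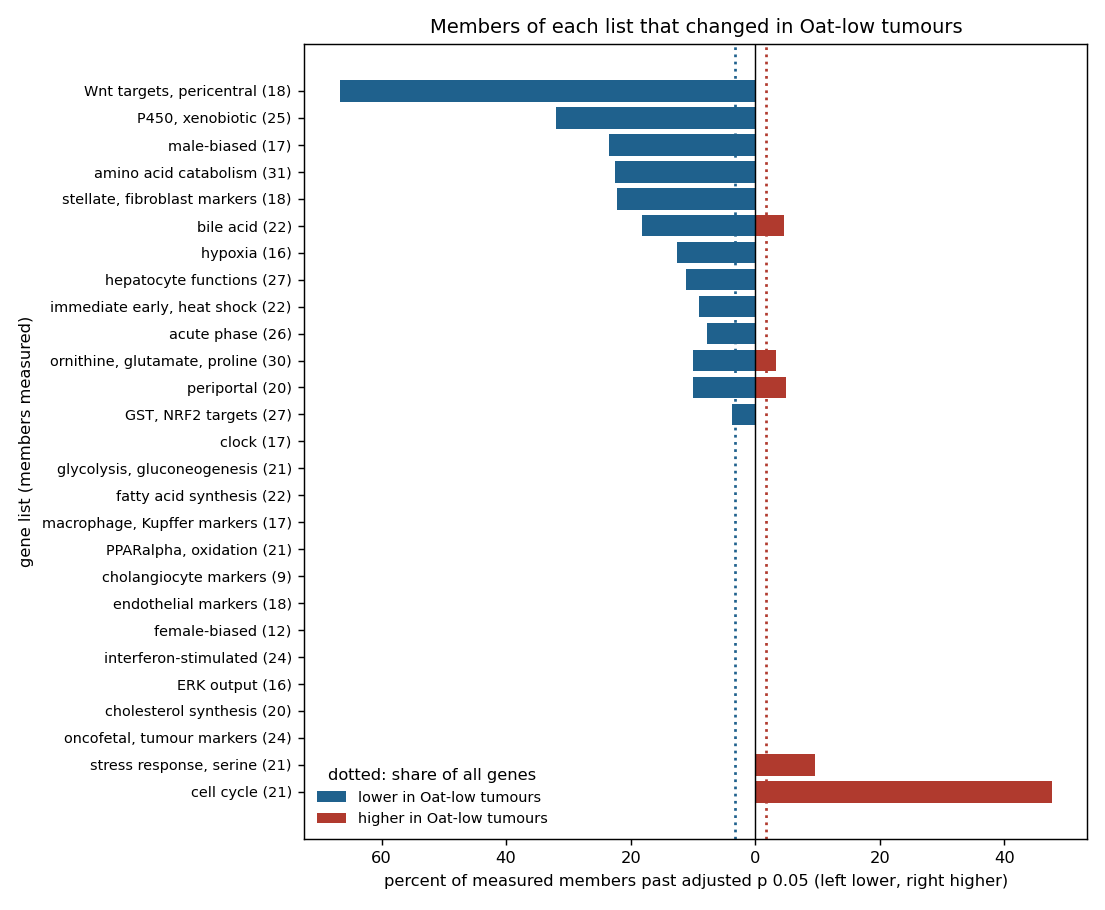
Percent of the measured members of each gene list past an adjusted p of 0.05, lower in Oat-low tumours to the left and higher to the right, with the share of all genes dotted (3.24% lower, 1.68% higher) and the number measured in brackets. The Wnt and pericentral list has 12 of 18 members lower and the cell cycle list 10 of 21 higher.

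Among markers of other liver cells, some of those listed for stellate cells and fibroblasts differed between the classes. Of 18 measured 4 fell, against 3.24% of all genes. They were Ecm1 (-1.37 ± 0.21, limma adjusted p = 0.00513), the proteoglycan Dcn (-1.09 ± 0.17, 0.00664), Colec11 (-0.95 ± 0.19, 0.017) and the pericyte gene Rgs5 (-1.10 ± 0.26, 0.0316). In tumours 17 and 19 Ecm1 read 9.19 and 8.96, above every other array. Dcn read 4.71 and 6.77 there and Colec11 5.23 and 8.04, below every Oat-retaining tumour, so these markers did not move together. The collagens Col1a2 (0.63 ± 0.56) and Col3a1 (0.85 ± 0.46) and the myofibroblast actin Acta2 (0.87 ± 0.44) had positive differences that did not pass. The summed linear signal of the list was 5356 to 9470 in Oat-low tumours and 5786 to 13063 in Oat-retaining tumours, which overlap, and Col1a1 and Des were below log2 4 on all 13 arrays. Their part in the results was not tested.

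Markers of other cell types mostly overlapped between the classes. With limma none passed among 17 macrophage and Kupffer cell markers (1 at an unadjusted p under 0.05) and 18 endothelial markers (1). The same held for 9 cholangiocyte, 5 B and plasma cell, 5 dendritic cell, 2 neutrophil and 1 T and NK cell markers, with 0 at an unadjusted p under 0.05. Macrophage markers summed to 6065 to 15909 in Oat-low tumours and 5034 to 12936 in Oat-retaining tumours, endothelial markers to 2500 to 4045 and 1486 to 5259 in the same order, and cholangiocyte markers to 9946 to 25109 and 11447 to 23347. The T cell genes Cd3e, Cd3d, Cd4 and Cd8a and the biliary keratins Krt7 and Krt19 were below log2 4 on all 13 arrays. Of the erythroid markers Car1 was below log2 4 in all Oat-low tumours and at least 1.14-fold lower (limma adjusted p = 0.00455). Cd163, a macrophage receptor, had 2.07 to 3.97 in Oat-low tumours and 2.73 to 6.96 in Oat-retaining tumours and did not pass (limma adjusted p = 0.108).

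Of 55 named genes that passed, 21 lost the call when some array was left out. With the labelled group as a covariate 25 lost it, and 25 without the antibiotic-treated tumours. These settings share the same estimate of the class difference, so they are not separate checks. Without the antibiotic-treated tumours Cyp2c54 (limma adjusted p = 0.0584) and Rims2 (0.0503) were among the genes that lost the call. Those that lost it without WT tumour 18 alone were Hamp2, Mageh1, Spc25 and Pclaf, those without WT tumour 18 or 20 Cyp4a12a and Trib3, and mutant tumour 27 also mattered for Orm2, Aldh18a1 and Cyp1a2. With the covariate the adjusted p was 0.0681 for Mki67, 0.079 for Ccna2, 0.142 for Psat1, 0.0627 for Trib3, 0.0613 for Lect2, 0.0613 for Hgd, 0.0598 for Dusp1 and 0.155 for Cdh1. It was 0.156 for Gsta3, 0.122 for Pdk1, 0.152 for Mxi1 and 0.0846 for Hspb1.

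Within each label few genes were called. Among WT tumours alone (3 against 2) limma gave 2 genes lower and 0 higher, with 1145 genes at an unadjusted p under 0.05. Among mutant tumours alone (3 against 2) it gave 1 lower and 1 higher, with 1390. All 445 genes called over the 13 arrays had the same sign in WT as in mutant tumours, which the choice of those genes in part fixes. A test of whether the class difference itself differed between WT and mutant tumours called 0 of 9052 genes with limma (381 at an unadjusted p under 0.05, smallest adjusted p = 0.247).

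Set beside normal liver, most called genes were shifted further in Oat-low than in Oat-retaining tumours. For 251 of the 293 lower genes and 135 of the 152 higher genes the mean of Oat-retaining tumours lay between the means of Oat-low tumours and normal liver. The choice of these genes fixes the order of the Oat classes, so only the place of normal liver is free. The share over all genes was not computed. Normal livers differ from the tumours in age and treatment and had a Gapdh 3′ excess of 1.37 to 1.61, so this is an order of means, with no test, and the part of these in it was not tested. Tumours 17 and 19, with Oat above the upper bound, did not extend the order. For the 293 lower genes their mean was above that of Oat-retaining tumours for 43 and below that of Oat-low tumours for 138. For the 152 higher genes it was below that of Oat-retaining tumours for 29 and above that of Oat-low tumours for 48.

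RNA quality controls did not pass a test between the classes. For Gapdh the 3′ control signal exceeded the 5′ one by 0.47 ± 0.17 in Oat-low tumours and 0.55 ± 0.24 in Oat-retaining tumours (log2, SD, n = 6 and 7; two-sided exact permutation test over 1716 splits, p = 0.496, adjusted p = 0.892 over 4 controls). For pyruvate carboxylase, a mitochondrial enzyme with control probe sets of its own, the excess was 5.99 ± 0.74 and 6.68 ± 0.45 in the same order (-0.68 between the class means; p = 0.0676 by the exact permutation test, 0.27 after adjustment), and its part in the results was not tested. Array medians of the kept probe sets were 6.73 to 6.84 in Oat-low tumours and 6.69 to 6.85 in Oat-retaining tumours. On the first principal component, Oat-low tumours lay at -57.5 to -16.4, Oat-retaining tumours at -24.4 to 18.8 and normal livers at 97.1 to 101.4.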

How the data were processed

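Expression was measured on 18 oligonucleotide arrays of 45101 probe sets, 1 for each tumour or liver sample. The deposited values are log2 signals made by the authors with GCRMA, per the submitters' processing notes; the GCRMA version is not given in the sources used here. Arrays have no read depth, and the number of arrays limits the precision.

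Probe sets above log2 4 on at least 3 arrays were kept (16663), and a gene took the kept probe set with the highest mean signal, which left 9052 genes besides Oat. Oat classes were set by its log2 signal at the bounds 10 and 12.5. Oat-low were compared with Oat-retaining tumours with limma 3.58.1 in R 4.3.3 (two-sided, Benjamini-Hochberg over 9052 genes, adjusted p under 0.05). A class with every array below log2 4 counted as dim, and its fold was computed against log2 4. Where only some arrays of a class were below log2 4, the exact size of the difference is uncertain. Controls were compared with exact permutation tests over arrays. Named were the 12 largest falls and rises with classes apart, up to 3 passing members of each list in each direction or else the largest change, and 30 fixed genes, of which Gls2, Pycr1 and Sds were not analysed here; other list members named were chosen after their values were seen. The members, lists and naming rule were chosen with earlier results of these data known.

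Gene names came from the platform annotation (34945 probe sets with 1 symbol, 932 with several and 9160 with none besides 64 controls), of which 34741 were found by Entrez identifier in a gene table on GRCm38.p6. In data simulated on these classes, 73 of 100 genes changed 2-fold and 92 of 100 changed 4-fold were recovered among 9052, with 10 false calls of 175. Alternatives varied the filter, probe set, normalization, variance model, weights, covariate, arrays and Oat coding, and left out each array in turn. Figures used python 3.11.15 and matplotlib 3.10.9.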

Additional observations from a re-analysis of the deposited data

Results flagged for a closer look

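Of 176 sets of 6 or 7 values, 1 for each named gene and class, 21 held an array far from the others by Dixon's criterion, and chance flags about 1 in 20. Antibiotic-treated tumour 30 was the lowest Oat-retaining array for Cdh1 (9.65), G6pc (5.05), Susd4 (4.72), Cyp7b1 (9.67), Cela1 (7.40) and Afp (6.63). WT tumour 16 was the lowest Oat-low array for Spry2 (3.88), Hal (9.68), Dusp6 (10.62), Spry4 (3.71) and Gpc3 (6.27). Antibiotic-treated tumour 29 was the highest Oat-retaining array for Ccl5 (6.95), Irf8 (5.95) and Slc1a2 (4.21) and the lowest for Cyp27a1 (10.08). WT tumour 20 was the lowest Oat-low array for Cps1 (12.28) and Mxi1 (7.29). Mutant tumour 25 was the highest Oat-low array for Dct (5.12) and mutant tumour 24 for Hspb1 (4.91). Among Oat-retaining tumours, Trib3 was highest in WT tumour 21 (8.80) and Usp2 lowest in mutant tumour 23 (2.89). All values are log2 signals, and no explanation was tested.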

How the results depend on the processing

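The counts of 293 lower and 152 higher genes were 138 and 57 with the labelled group as a covariate, 152 and 66 without the antibiotic-treated tumours, 55 and 34 with tumours 17 and 19 counted as Oat-retaining, 140 and 48 at a 2-fold minimum and 51 and 10 at an adjusted p under 0.01. Among WT tumours alone (5 arrays) they were 2 and 0, and among mutant tumours alone (5 arrays) 1 and 1, where fewer samples entered. Oat as a continuous covariate gave 443 lower and array weights 238 higher genes; the filter, probe set, normalization, variance and 18-array settings kept both counts within 1.5 times. Leaving out each array gave 128 to 334 lower and 44 to 174 higher genes. Directions turned for genes that had not passed, and the cause was not tested. With the covariate and also without the antibiotic-treated tumours, which share the same estimate by design, Igha was -0.24, Cela1 -0.049, Odc1 0.062 and Hal -0.22. In WT tumours alone Mvd was -0.39, Hal -0.24, Dusp6 -0.29, Spry4 -0.48 and Ccnd1 -0.24, and in mutant tumours alone Igha was -0.58, Cela1 -0.15, Odc1 0.33 and Hal -0.20. With tumours 17 and 19 as Oat-retaining Arg1 was 0.52, Otc 0.30 and Cps1 0.30. Leaving out each array gave -0.028 to 0.55 for Cela1, -0.022 to 0.63 for Spry4 and -0.084 to 0.35 for Ccnd1. The 3′ minus 5′ class difference of Tfrc was -0.0313 without the antibiotic-treated tumours and -0.018 to 0.059 over single omissions, of Actb -0.11 to 0.046 and of pyruvate carboxylase -0.92 to -0.53. No paired analysis was possible because replicate numbers are unique to each tumour. The number of arrays and probes near background limit these counts.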
